A study of Arabidopsis thaliana with 20 samples.

Results

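WRKY53 (AT4G23810), WRKY6 (AT1G62300), WRKY22 (AT4G01250) and ZAT10 (AT1G27730, carried in the array's annotation under its synonym STZ) are 4 Arabidopsis transcription factor genes of stress and immune signalling. They were chosen by name, with earlier results of these data known. Each was represented by a single probe set that named no other gene. They make up 4 of the 22746 probe sets tested, and 4 of the 13356 genes that had a probe set of their own.

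Plants of accession Col-0 with a rosette of 9 to 10 leaves were placed fully under water in darkness, kept dark in air in that same chamber, or taken from the lit growth chamber at 0 h. Submerged and dark plants were harvested after 7 or 24 h, and whole roots and rosette leaves (called shoots here) were measured separately on Affymetrix ATH1 arrays, which read each transcript as a set of short probes. That gives 10 groups: in each tissue, submerged at 7 and 24 h, dark at 7 and 24 h, and light at 0 h. Each held 2 arrays from independent biological replicate experiments, so 20 arrays in all, and their number limits the precision. All plants had the same genotype, and treatments began 2 h into a photoperiod of 9 h at 20 °C. Light plants were harvested at 0 h only, so darkness and elapsed time cannot be told apart, nor at 7 h can clock time.

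WRKY proteins bind W-box motifs in promoters through a zinc-binding WRKY domain, and many of their genes are switched on within minutes by pathogens, wounding or oxidative stress. WRKY53 promotes leaf senescence and responds to hydrogen peroxide, WRKY6 is active in senescing leaves, in roots and in defence, and WRKY22 acts downstream of a mitogen-activated protein kinase cascade triggered by bacterial flagellin and takes part in dark-induced leaf senescence. ZAT10 is a C2H2 zinc finger protein with an EAR repression motif whose gene responds to salt, cold, drought and strong light.

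Values were log2 expression values, on which 1 unit is a 2-fold difference, and a level of one gene is not set against that of another because probe sets differ in brightness. A change is a difference of group means with its standard error (SE) from limma, fitted to all 20 arrays, and a gene was called when its p adjusted over the 22746 probe sets of a comparison lay under 0.05. The tissue labels were checked against markers. Here and below, a listed gene counts as measured only if a probe set was named for it alone. The 3 measured shoot markers, RCA, LHCB4.2 and PRK of photosynthesis, read 4.17 to 7.88 on root arrays and 11.14 to 14.21 on shoot arrays. The 3 measured root markers were PYK10, a root beta-glucosidase, and the root-hair expansins EXPA7 and EXPA18, and for each of them every root array lay above every shoot array. Replicate arrays correlated with Pearson's r of 0.9915 to 0.9958 across probe sets, which are not independent replicates. The pair of light shoot arrays stood apart: 259 probe sets differed by more than 1 between its arrays, against 33 to 106 in the other 9 groups. ZAT10 differed by 2.69 between those arrays, WRKY53 by 1.35 and WRKY6 by 0.70. This spread enters the SE of these genes in every comparison, so results that turn on it are also given without these arrays.

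**Figure D1:**
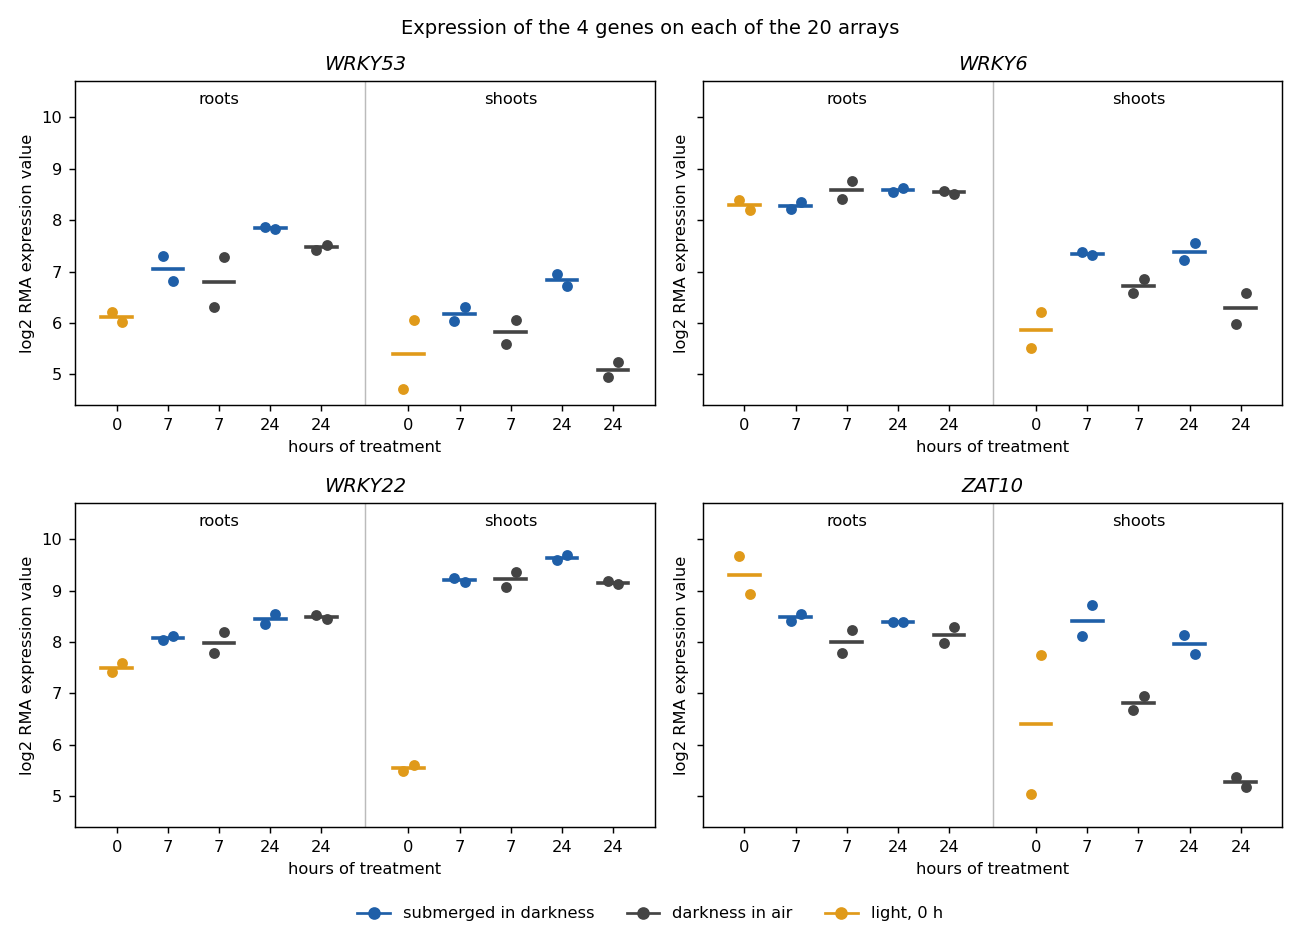
Log2 RMA expression values (vertical axis) of the 4 genes on all 20 arrays, by hours of treatment (horizontal axis) in roots (left of each panel) and shoots (right), with submerged (blue) left of dark (grey) at each time. Points are arrays and bars are means of 2. The submerged shoots at 24 h lie above the dark shoots for all 4 genes, WRKY22 is low only on the light shoot arrays (5.50 and 5.62), and ZAT10 on the light shoot arrays reads 5.05 and 7.75.

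Submergence was compared with darkness of the same duration, which asks what water adds to darkness. In shoots at 24 h all 4 genes were higher under water, ZAT10 most (6.37-fold) and WRKY22 least (1.40-fold). All 4 members were called higher in this comparison, in which 11.9% of all probe sets were called and 5.90% were called higher. The 4 genes were chosen with earlier results of these data known, so this count is a description and no test. ZAT10 read 8.14 and 7.76 in submerged shoots, against 5.39 and 5.18 in dark shoots. The lowest submerged array lay more than 2 units above the highest dark array, and the change of 2.67 (SE 0.515, adjusted p = 0.00176) ranked number 42 among the rises of all probe sets. WRKY53, the senescence regulator, read 6.94 and 6.73 in submerged shoots, against 4.95 and 5.24 in dark shoots. Its 2 pairs of arrays were also far apart, and it rose by 1.74 (SE 0.332, adjusted p = 0.00157), which is 3.34-fold. These 2 calls held in all 20 fits that left out 1 array.

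WRKY6 read 7.21 and 7.55 in submerged shoots at 24 h, against 5.98 and 6.59 in dark shoots. The groups did not overlap, and it rose by 1.10 (SE 0.214, adjusted p = 0.00189). Without dark replicate 1, the lowest of these arrays, the change was 0.79 and the call ended (adjusted p = 0.053). WRKY22, the flagellin pathway gene, read 9.60 and 9.68 in submerged shoots, against 9.19 and 9.12 in dark shoots. The replicates lay within 0.1 of each other in both groups, and it rose by 0.49 (SE 0.14, adjusted p = 0.0292). Leaving out any of these 4 arrays ended that call (adjusted p = 0.076 without submerged replicate 1, 0.16 without submerged replicate 2, 0.093 without dark replicate 1 and 0.17 without dark replicate 2), with changes of 0.44 to 0.53. In bulk tissue, a change in cell makeup and a change in RNA per cell cannot be told apart. The mean of the 3 shoot markers was 12.53 and 12.72 on these submerged arrays and 12.88 and 12.76 on the dark arrays, and none of the 3 was called, but the part of this in the results was not tested.

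In shoots at 7 h, 1 of 4 members was called, where 13.7% of all probe sets were. ZAT10 read 8.11 and 8.72 in submerged shoots, against 6.67 and 6.96 in dark shoots. Both submerged arrays lay above both dark arrays by more than 1 unit, and it rose by 1.60 (SE 0.515, adjusted p = 0.048). This call did not hold from the shoot arrays alone, nor with a variance model that followed intensity and was fitted robustly. That call ended in 16 of the 20 fits that left out 1 array, with adjusted p up to 0.3, but without either light shoot array the SE was 0.234 and the adjusted p 0.00011, and without all 4 light arrays the adjusted p was 2.9e-05. WRKY6 read 7.37 and 7.31 in submerged shoots, against 6.59 and 6.86 in dark shoots, with no overlap. Its difference of 0.62 missed the threshold (adjusted p = 0.0658, 95% interval 0.17 to 1.07), and passed it without either light shoot array (adjusted p = 0.027) or without shoot dark 24 h replicate 1 or 2 (adjusted p = 0.043), with adjusted p up to 0.37 without other arrays. WRKY53 read 6.04 and 6.31 in submerged shoots, against 5.60 and 6.06 in dark shoots, which overlap (difference 0.34, 95% interval -0.36 to 1.05). WRKY22 read 9.24 and 9.17 in submerged shoots, against 9.08 and 9.36 in dark shoots, with a difference of -0.01 (95% interval -0.31 to 0.28). The mean of the shoot markers was 12.29 and 12.12 on the submerged arrays and 13.08 and 13.10 on the dark arrays, with 2 of 3 called lower, and the part of this in the results was not tested.

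In roots, limma called 0 of 4 members at 7 h, where 8.69% of all probe sets were called, and 0 of 4 at 24 h, where 3.22% were. At an unadjusted p under 0.05 the count was also 0 at both times, as it was when the variance model followed intensity and was fitted robustly. ZAT10 read 8.40 and 8.55 in submerged roots at 7 h, against 7.79 and 8.22 in dark roots. The submerged arrays were the higher ones, by 0.47 on average, in an interval of -0.62 to 1.56 that is too wide to place the change. At 24 h ZAT10 read 8.38 and 8.39 in submerged roots, against 7.99 and 8.30 in dark roots (difference 0.24, 95% interval -0.85 to 1.33). WRKY53 read 7.31 and 6.81 in submerged roots at 7 h, against 6.31 and 7.28 in dark roots, whose arrays were 0.97 apart. At 24 h it read 7.87 and 7.82 in submerged roots, against 7.42 and 7.52 in dark roots (difference 0.38, 95% interval -0.32 to 1.08). Its 24 h groups did not overlap, with the submerged arrays the higher ones.

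WRKY6 read 8.21 and 8.34 in submerged roots at 7 h, against 8.41 and 8.77 in dark roots, a difference of -0.31 (95% interval -0.76 to 0.14), and its submerged roots read lower without overlap. At 24 h it read 8.54 and 8.63 in submerged roots, against 8.57 and 8.50 in dark roots. WRKY22 read 8.04 and 8.11 in submerged roots at 7 h, against 7.78 and 8.20 in dark roots. At 24 h it read 8.35 and 8.55 in submerged roots, against 8.53 and 8.46 in dark roots, and the interval of -0.34 to 0.25 is the narrowest of the 4 genes there. Of the 3 root markers, 2 were called higher under water at 7 h, where their mean was 8.77 and 9.10 on submerged and 8.04 and 8.46 on dark root arrays, and 1 lower at 24 h (8.17 and 7.99 on submerged, 8.01 and 8.00 on dark root arrays), and their part in the root values was not tested.

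**Figure D2:**
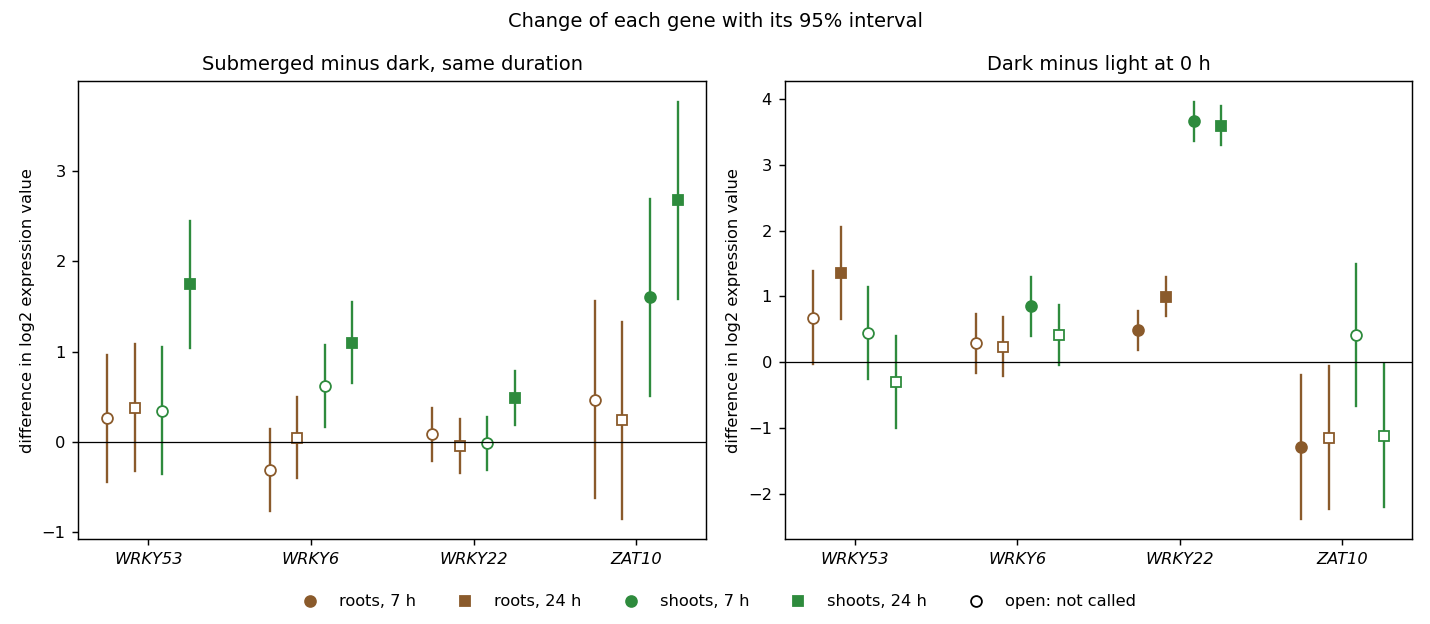
Differences in log2 expression value (vertical axis) of each gene, submerged minus dark (left panel) and dark minus light (right panel), in roots (brown) and shoots (green) at 7 h (circles) and 24 h (squares). Bars are 95% intervals of the limma fit to 20 arrays, filled points were called and open points were not. Shoots at 24 h are filled for all 4 genes on the left, from 0.49 for WRKY22 to 2.67 for ZAT10, and WRKY22 in shoots stands at 3.66 and 3.60 on the right.

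Whether roots and shoots differed in their response to water was tested as a difference of changes, root minus shoot. At 24 h, 1 of 4 members was called, where 6.86% of all probe sets were. WRKY6 had a root change of 0.05 and a shoot change of 1.10, a difference of -1.05 (SE 0.302, adjusted p = 0.045), and this call ended in 12 of the 20 fits that left out 1 array. Arrays of roots and shoots at 7 and 24 h were among those 12, with adjusted p of 0.052 to 0.22. ZAT10 had the largest estimate of the 4 genes, a root change of 0.24 and a shoot change of 2.67. Its difference of -2.43 (SE 0.729) missed the threshold (adjusted p = 0.0545, 95% interval -3.97 to -0.89), and without the 4 light arrays its SE was 0.283 and its adjusted p 4.4e-05. WRKY53 differed by -1.36 (adjusted p = 0.0999, and 0.024 without the light arrays), and WRKY22 by -0.53 (adjusted p = 0.134).

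At 7 h, 0 of 4 members were called by limma in that test of root minus shoot submergence changes, where 7.68% of all probe sets were. At an unadjusted p under 0.05 the count was 1, WRKY6, and it was 0 with the robust variance trend. WRKY6 differed by -0.93 (95% interval -1.57 to -0.30, adjusted p = 0.0705), with 0.037 with the replicate number as a block and 0.032 without the light arrays. ZAT10 differed by -1.13 (95% interval -2.67 to 0.41, adjusted p = 0.43), with 0.02 without the light arrays. Neither the root nor the shoot change under water was called as different between 24 and 7 h for any member, in comparisons where 1.45% of probe sets were called in roots and 2.00% in shoots. Both counts of 0 from limma were also 0 with the robust variance trend, and at an unadjusted p under 0.05 they were 0 in roots and 2 in shoots. The largest estimate in shoots was that of WRKY53, whose change was 1.74 at 24 h and 0.34 at 7 h, a difference of 1.40 (95% interval 0.41 to 2.39, adjusted p = 0.166, and 0.046 without the light arrays).

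Darkness was compared with light at 0 h, and the same light arrays serve at both times, so the 7 and 24 h changes share them. WRKY22 had by far the largest response of the 4 genes, and it lay in shoots. WRKY22 read 9.08 and 9.36 in dark shoots at 7 h and 9.19 and 9.12 in dark shoots at 24 h, against 5.50 and 5.62 in light shoots. Its dark arrays were more than 3 units above its light arrays, with a change of 3.66 at 7 h (SE 0.14, adjusted p = 3.82e-13) and 3.60 at 24 h (adjusted p = 4.17e-13), which are 12.7-fold and 12.1-fold. At 7 h, 2 of 4 members were called in shoots, where 48.9% of all probe sets were, and at 24 h 1 of 4, where 52.4% were, so calls are common in these comparisons. The 7 h change of WRKY22 ranked number 178 among the rises of all probe sets.

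WRKY6 read 6.59 and 6.86 in dark shoots at 7 h, against 5.52 and 6.22 in light shoots. It was called higher by 0.85 (SE 0.214, adjusted p = 0.00257), but without light replicate 1 the change was 0.50 and the call ended (adjusted p = 0.08). At 24 h it read 5.98 and 6.59 in dark shoots, which overlap the light arrays (difference 0.41, 95% interval -0.04 to 0.86). That difference was called without light replicate 2 (0.77, adjusted p = 0.0077) and without dark replicate 1 (0.72, adjusted p = 0.018), but was 0.06 without light replicate 1 (adjusted p = 0.86). The mean of the 3 shoot markers was 13.08 and 13.10 on dark shoot arrays at 7 h and 12.88 and 12.76 at 24 h, against 13.67 and 13.64 on light shoot arrays. Of these markers 1 was called lower at 7 h and 2 at 24 h, and their part in the shoot results was not tested.

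WRKY53 and ZAT10 had no settled direction against light in shoots, because the sign of the difference turned with which light array was left out. ZAT10 read 6.67 and 6.96 in dark shoots at 7 h and 5.39 and 5.18 in dark shoots at 24 h, against 5.05 and 7.75 in light shoots. Its difference at 7 h was 0.42 (95% interval -0.67 to 1.50), but it was -0.93 (adjusted p = 0.013) without light replicate 1 and 1.76 (adjusted p = 5.6e-05) without light replicate 2. At 24 h it was -1.12 (adjusted p = 0.0804), with -2.47 (adjusted p = 1e-06) without replicate 1 and 0.23 (adjusted p = 0.58) without replicate 2. WRKY53 read 5.60 and 6.06 in dark shoots at 7 h and 4.95 and 5.24 in dark shoots at 24 h, against 4.72 and 6.06 in light shoots. Its difference at 7 h was 0.44, with 1.11 (adjusted p = 0.0048) without replicate 2 and -0.23 (adjusted p = 0.61) without replicate 1. At 24 h it was -0.30, with -0.97 (adjusted p = 0.011) without replicate 1 and 0.38 (adjusted p = 0.34) without replicate 2.

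In roots WRKY53 and WRKY22 were higher after 24 h of darkness than in light. ZAT10 read lower in dark roots at both times but was called at 7 h only, where the call depended on the arrays kept and on the processing. At 24 h, 2 of 4 members were called, where 52.8% of all probe sets were. WRKY53 read 7.42 and 7.52 in dark roots at 24 h, against 6.21 and 6.03 in light roots, and rose by 1.35 (SE 0.332, adjusted p = 0.00214). WRKY22 read 8.53 and 8.46 in dark roots at 24 h, against 7.42 and 7.58 in light roots, and rose by 0.99 (SE 0.14, adjusted p = 8.91e-06), a 1.99-fold change. Both calls held in all 20 fits that left out 1 array. ZAT10, the zinc finger gene, read 7.99 and 8.30 in dark roots at 24 h, against 9.67 and 8.92 in light roots. Both light arrays were the higher ones, and the difference of -1.15 missed the threshold (adjusted p = 0.0709) but was called from the root arrays alone (adjusted p = 0.00088) and without either light shoot array (adjusted p = 0.00043), with adjusted p up to 0.34 without other arrays.

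At 7 h, 2 of 4 members were called in roots, where 46.9% of all probe sets were. ZAT10 read 7.79 and 8.22 in dark roots at 7 h, against 9.67 and 8.92 in light roots, a change of -1.29 (SE 0.515, adjusted p = 0.0492). That call ended in 17 of the 20 fits that left out 1 array, with adjusted p up to 0.27, and stood at 0.00018 without either light shoot array. WRKY22 read 7.78 and 8.20 in dark roots at 7 h and rose by 0.49 against light (SE 0.14, adjusted p = 0.00789), but the call ended without light replicate 1 (adjusted p = 0.069) and without dark replicate 2 (0.28, adjusted p = 0.16). WRKY53 read 6.31 and 7.28 in dark roots at 7 h, a difference of 0.68 from light (95% interval -0.02 to 1.38), which was called without dark replicate 1 (1.16, adjusted p = 0.016) and without either light shoot array (adjusted p = 0.029), but was 0.19 without dark replicate 2 (adjusted p = 0.72).

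WRKY6 read 8.41 and 8.77 in dark roots at 7 h and 8.57 and 8.50 at 24 h, against 8.40 and 8.20 in light roots. It was called at neither time, with differences of 0.29 (95% interval -0.16 to 0.74) and 0.24 (95% interval -0.22 to 0.69). The mean of the 3 root markers was 8.04 and 8.46 on dark root arrays at 7 h and 8.01 and 8.00 at 24 h, against 11.08 and 10.92 on light root arrays, and all 3 were called lower at both times. The shoot markers averaged 6.40 and 6.64 on dark root arrays at 7 h, against 4.91 and 5.63 on light root arrays, with 2 of 3 called higher. At 24 h they averaged 6.23 and 6.33 on dark root arrays, and 1 of 3 was called higher, LHCB4.2 by 2.48 (adjusted p = 1.68e-08). The part of these markers in the root results was not tested.

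The darkness change of WRKY22 differed between tissues at both times, and that of WRKY53 at 24 h. At 7 h, 1 of 4 members was called for the root minus shoot difference, where 38.8% of all probe sets were, and at 24 h 2 of 4, where 39.6% were. WRKY22 differed by -3.18 at 7 h (SE 0.198, adjusted p = 1.14e-09) and by -2.61 at 24 h (adjusted p = 8.64e-09), having risen in both tissues but far more in shoots. WRKY53 differed by 0.24 at 7 h, which was not called (adjusted p = 0.744). At 24 h it differed by 1.65 (SE 0.47, adjusted p = 0.00895), with a change of 1.35 in roots and -0.30 in shoots. Without light shoot replicate 2 that difference was 0.97 (adjusted p = 0.057). For ZAT10 the difference at 24 h was -0.03, but 1.32 (adjusted p = 0.009) without light shoot replicate 1 and -1.38 (adjusted p = 0.0068) without replicate 2. At 7 h it was -1.70 for ZAT10 (adjusted p = 0.0758), with -3.05 (adjusted p = 4.5e-06) without light shoot replicate 2 and -0.36 (adjusted p = 0.51) without light shoot replicate 1. WRKY6 differed by -0.56 at 7 h (adjusted p = 0.159), with -0.92 (adjusted p = 0.018) without light shoot replicate 2 and -0.21 (adjusted p = 0.63) without light shoot replicate 1.

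Against light at 0 h, submerged tissue carries darkness and water together, and these comparisons share arrays with those above. In submerged shoots at 24 h all 4 members were called higher, where 53.2% of all probe sets were called and 27.1% were called higher, with changes of 4.08 for WRKY22, 1.55 for ZAT10, 1.51 for WRKY6 and 1.45 for WRKY53. The change of ZAT10 was 0.21 without light replicate 1 (adjusted p = 0.61) and 2.90 without replicate 2, and its call also ended without submerged replicate 1 (adjusted p = 0.097). That of WRKY53 was 0.77 without light replicate 1 (adjusted p = 0.04) and 2.12 without replicate 2. With the robust variance trend 3 of 4 were called, ZAT10 not (adjusted p = 0.069). At 7 h, 3 of 4 members were called higher in submerged shoots, where 51.8% of all probe sets were called: WRKY22 (3.65), ZAT10 (2.01) and WRKY6 (1.47). ZAT10 again depended on the light pair, with 0.67 (adjusted p = 0.067) without replicate 1. WRKY53 was 0.79 higher (95% interval 0.09 to 1.49, adjusted p = 0.0574), against 1.46 without light replicate 2 (adjusted p = 0.00047) and 0.11 without light replicate 1 (adjusted p = 0.81).

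In submerged roots WRKY53 and WRKY22 were called higher than in light at both times, 2 of 4 members where 45.5% of all probe sets were called at 7 h and 51.7% at 24 h. WRKY53 changed by 0.94 at 7 h (adjusted p = 0.0272) and 1.73 at 24 h (adjusted p = 0.000238). The 7 h call ended without light root replicate 1 (adjusted p = 0.06), without light root replicate 2 (0.13) and without submerged replicate 1 (0.21), and with the robust variance trend (0.066). WRKY22 changed by 0.57 at 7 h (adjusted p = 0.0024) and 0.95 at 24 h (adjusted p = 1.49e-05). ZAT10 was not called (-0.82 at 7 h and -0.91 at 24 h), but it was called lower without either light shoot array (adjusted p = 0.0077 at 7 h and 0.0031 at 24 h), with adjusted p up to 0.64 at 7 h and 0.53 at 24 h without other arrays.

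The 24 h arrays were also compared directly with the 7 h arrays of the same treatment, which share no light arrays. In dark shoots 1 of 4 members was called, where 18.4% of all probe sets were. ZAT10 read 5.39 and 5.18 at 24 h, against 6.67 and 6.96 at 7 h, and fell by 1.53 (SE 0.515, adjusted p = 0.0469). The pairs lay more than 1 unit apart, but the call ended in 16 of the 20 fits that left out 1 array, and with the robust variance trend (adjusted p = 0.15), and stood at 0.00019 without either light shoot array. In submerged shoots ZAT10 read 8.14 and 7.76 at 24 h, against 8.11 and 8.72 at 7 h (difference -0.46, 95% interval -1.55 to 0.63).

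In submerged shoots 1 of 4 members was called between times, where 18.0% of all probe sets were. It was WRKY22, with 0.44 higher at 24 h (adjusted p = 0.038). Leaving out any of those 4 arrays ended that call (adjusted p = 0.083 to 0.19). In dark roots 1 of 4 was called, again WRKY22, where 22.8% of all probe sets were, with 0.50 higher at 24 h (adjusted p = 0.0142). This call ended without dark 7 h replicate 1 (0.30, adjusted p = 0.21) and without dark 24 h replicate 1 (adjusted p = 0.091). In submerged roots 0 of 4 members were called by limma and 0 with the robust variance trend, where 13.8% of all probe sets were, though 2 had an unadjusted p under 0.05. WRKY53 was the one farthest apart there, 0.79 higher at 24 h (95% interval 0.09 to 1.49, adjusted p = 0.136), and it was called without either light shoot array (adjusted p = 0.038), with adjusted p up to 0.54 without other arrays.

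Roots and shoots were compared within each of the 5 conditions. WRKY6 was higher in roots in every condition: all 10 of its root arrays (8.20 to 8.77) lay above all 10 of its shoot arrays (5.52 to 7.55). Its root minus shoot difference was called in every condition, from 0.93 in submerged tissue at 7 h (adjusted p = 0.0013) to 2.43 in light (adjusted p = 1.25e-08). It was 1.204 in submerged tissue at 24 h, and 1.87 and 2.25 in darkness at 7 and 24 h. WRKY22 changed sides. It was 1.95 higher in roots in light (adjusted p = 7.11e-10) and lower in roots in the other 4 conditions, with differences of -1.13 and -1.19 in submerged tissue at 7 and 24 h and of -1.23 and -0.66 in darkness at 7 and 24 h, all called.

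In light 3 of 4 members were called, where 59.1% of all probe sets were. ZAT10 was 2.90 higher in light roots than in light shoots (adjusted p = 8.74e-05), and 1.55 higher (adjusted p = 0.00016) without light shoot replicate 1, or 4.24 without replicate 2. In darkness 3 of 4 members were called at 7 h, where 50.8% of all probe sets were, and 4 of 4 at 24 h, where 48.7% were. ZAT10 was 2.86 higher in dark roots at 24 h (adjusted p = 0.000128). At 7 h it was 1.19 higher (adjusted p = 0.0642), which passed without either light shoot array (adjusted p = 0.00031), with adjusted p up to 0.25 without other arrays.

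In submerged tissue 3 of 4 members were called between roots and shoots at 7 h, where 49.1% of all probe sets were, and 3 of 4 at 24 h, where 50.4% were. ZAT10 was the one not called, with 8.40 and 8.55 in submerged roots at 7 h, against 8.11 and 8.72 in submerged shoots (difference 0.06, 95% interval -1.02 to 1.15). At 24 h the difference was 0.43 (95% interval -0.66 to 1.52). The wide intervals do not show that the tissues were alike. WRKY53 was higher in roots by 0.88 at 7 h and 1.01 at 24 h in submerged tissue, and by 0.96 at 7 h and 2.38 at 24 h in darkness, all of which were called. The call in darkness at 24 h held in all 20 fits that left out 1 array, while each of the other 3 ended without 2 or 3 of its own arrays. These were dark root 7 h replicate 2 (adjusted p = 0.33) and dark shoot 7 h replicate 1 (0.17); submerged root 7 h replicate 1 (0.24) and submerged shoot 7 h replicates 1 (0.17) and 2 (0.061). With the robust variance trend both 7 h calls ended (adjusted p = 0.054 in darkness and 0.078 in submerged tissue). At 24 h the arrays were submerged root replicates 1 (0.069) and 2 (0.054) and submerged shoot replicate 2 (0.094). In light WRKY53 was 0.73 higher in roots (95% interval 0.03 to 1.43, adjusted p = 0.0688), 1.40 without light shoot replicate 2 (adjusted p = 6e-04) and 0.06 without light shoot replicate 1 (adjusted p = 0.9). It was also called without either dark root 7 h array (adjusted p = 0.043).

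**Figure D3:**
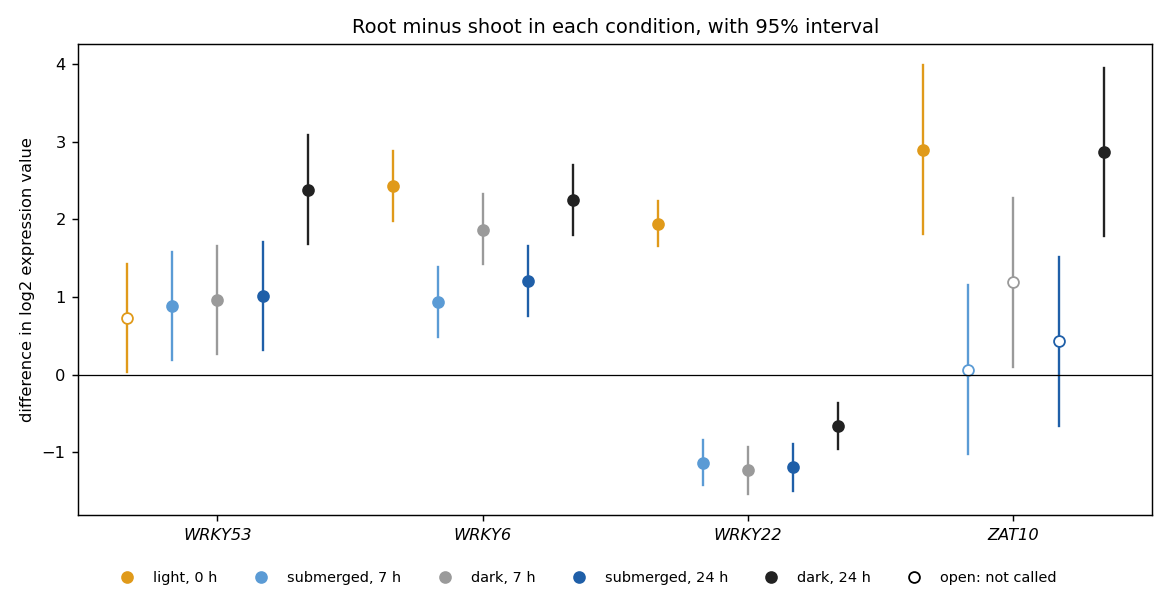
Root minus shoot difference in log2 expression value (vertical axis) of each gene in light at 0 h (orange) and in submerged (blue) and dark (grey, black) tissue at 7 and 24 h. Bars are 95% intervals and open points were not called. WRKY6 lies above 0 throughout (0.93 to 2.43), WRKY22 lies above 0 only in light (1.95), and ZAT10 lies near 0 in submerged tissue (0.06 and 0.43) but at 2.90 in light and 2.86 in darkness at 24 h.

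The order of the 10 group means differed between the genes. WRKY53 was highest in submerged roots at 24 h (mean 7.85 ± 0.04, SD, n = 2) and lowest in dark shoots at 24 h (5.09 ± 0.20), and each of its 9 steps between neighbours was smaller than 2 SE of a difference. WRKY6 had all 5 root groups on top, within 0.31 of each other. A step beyond the spread separated submerged shoots at 24 h (7.38 ± 0.24) from the lowest root group (submerged at 7 h, 8.28 ± 0.10), and another separated submerged shoots at 7 h (7.34 ± 0.04) from dark shoots at 7 h (6.72 ± 0.19). WRKY22 was highest in submerged shoots at 24 h (9.64 ± 0.06), followed by the 3 other dark or submerged shoot groups, which could not be separated from each other (9.16 to 9.22). The root groups came next, from dark roots at 24 h (8.49 ± 0.05) down to light roots (7.50 ± 0.12), and light shoots were lowest (5.56 ± 0.08). ZAT10 was highest in light roots (9.29 ± 0.53), followed by 6 groups between 8.48 and 7.95, and no step among these 7 exceeded 2 SE of a difference. The 3 lowest were dark shoots at 7 h (6.81 ± 0.20), light shoots (6.40 ± 1.90) and dark shoots at 24 h (5.28 ± 0.15).

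The spread between replicates was not even among the genes. The residual SD over 10 residual degrees of freedom was 0.661 for ZAT10, and 0.189% of all probe sets had a larger one. It was 0.416 for WRKY53 (1.12% larger), 0.25 for WRKY6 (7.48% larger) and 0.135 for WRKY22 (61.6% larger). In light shoots the gap of ZAT10 between arrays was matched or passed by 23 of the 22746 probe sets, and that of WRKY53 by 138. Replicate 2 was the higher array there for all 4 genes, though by 0.12 only for WRKY22. It was also the higher array for all 4 genes at 7 h in dark roots (by 0.35 to 0.97) and dark shoots (by 0.27 to 0.46). In light roots replicate 1 was higher for ZAT10, by 0.74. PUB23, a ubiquitin ligase gene of stress and immune responses, also had a wide spread on the light shoot arrays (6.70 ± 1.10, SD, n = 2).

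**Figure D4:**
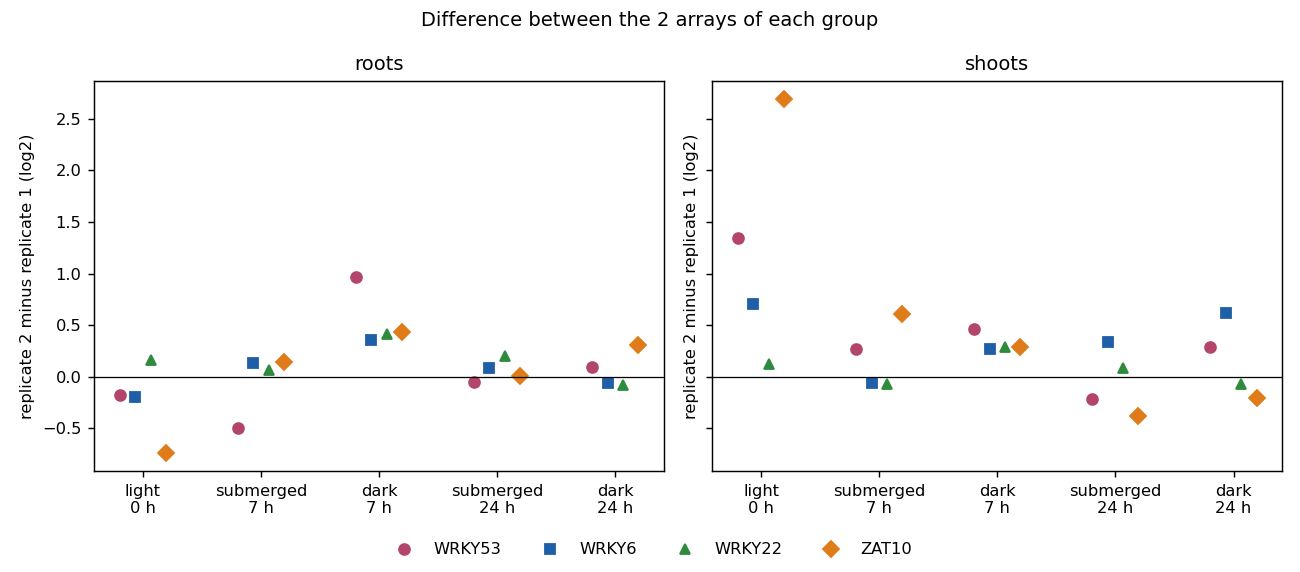
Replicate 2 minus replicate 1 in log2 expression value (vertical axis) for each gene in each of the 10 groups (horizontal axis), roots left and shoots right. The light shoot pair holds the 2 widest gaps, 2.69 for ZAT10 and 1.35 for WRKY53, and dark roots at 7 h hold the next for WRKY53 (0.97).

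Likeness of pattern depended on the groups included. Over the 10 group means Pearson's r was 0.85 between WRKY53 and WRKY6, 0.82 between WRKY6 and ZAT10 and 0.69 between WRKY53 and ZAT10, while WRKY22 had r of 0.02 to 0.20 with the others. These points share arrays, tissue and harvest, so r is a description. Over the 5 root groups ZAT10 ran opposite to the others (r of -0.64 with WRKY53, -0.73 with WRKY6 and -0.74 with WRKY22), and WRKY53 and WRKY22 ran together (0.97). WRKY22 had r of 0.64 with WRKY6 over the same 5 root groups. Over the 5 shoot groups ZAT10 had r of 0.87 with WRKY53 and 0.84 with WRKY6, and WRKY22 had r of 0.77 with WRKY6, 0.48 with WRKY53 and 0.31 with ZAT10.

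The genes with the most similar pattern over the 10 group means were sought among 7550 other probe sets of 1 gene whose means spanned at least 1. For WRKY53 they were AT5G39580 (r 0.95), AT3G56410, AT1G03010, AT1G55450 and AT5G10290 (0.94), and all 5 were called higher in submerged than in dark shoots at 24 h, by 1.10 to 2.95. For WRKY6 they were AT5G20400 (r 0.99), AT1G30700, AT4G39270, AT1G17860 and AT4G19880 (0.98), called higher there by 0.65 to 2.37. For ZAT10 they were AT1G19020 (r 0.92), AT3G05390, AT1G18210, GTR2, a glucosinolate transporter, and AT4G02860 (0.90), called higher by 0.73 to 2.34. For WRKY22 they were AT3G29270 (r 0.99), AT2G36220, AT1G15350, AT5G02580 and ACLA-3, a subunit of ATP-citrate lyase (0.98). None of the 5 nearest to WRKY22 was called in submerged against dark shoots at 24 h (-0.12 to 0.43). In that comparison 11.9% of all probe sets were called and 5.90% were called higher. Its group means enter both the pattern and these changes, so the changes add a description and no test. Over 20 arrays, 2 of the 5 stayed among the nearest 5 for WRKY53, 3 for ZAT10, and 5 each for WRKY6 and WRKY22. The likeness did not always hold within roots. Over the 5 root groups r was 0.038 to 0.698 for the genes nearest to WRKY6 and -0.311 to 0.907 for those nearest to ZAT10. It was 0.868 to 0.968 for WRKY53 and 0.736 to 0.965 for WRKY22. Over the 5 shoot groups r was 0.862 to 0.998 for all these genes.

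The WRKY family was represented by 7 of its 72 listed genes, since most had no probe set named for 1 gene here. In submerged against dark shoots at 24 h, 4 of 7 were called higher (WRKY53, WRKY6, WRKY22 and WRKY47) and 1 lower, with a median change of 0.49, against -0.01 over all probe sets, of which 11.9% were called and 5.90% were called higher. Of those 4, 3 are the WRKY genes described above, and the median is the change of WRKY22 itself. WRKY47, another family member, averaged 7.60 ± 0.27 in submerged shoots and 5.85 ± 0.05 in dark shoots (SD, n = 2 each) and rose by 1.75 (SE 0.179, adjusted p = 2.38e-06), the largest change of the 7 there. WRKY42, which in Arabidopsis works with WRKY6 in repressing a phosphate exporter gene, averaged 4.52 ± 0.10 in submerged shoots and 4.93 ± 0.04 in dark shoots and fell by 0.41 (adjusted p = 0.0256). Both means of WRKY42 lie below the lowest array median of 6.134, so its fall is a small change of a low reading. It was the sole measured gene of the 18 listed partners and targets. ZAP1 (-0.25) and WRKY20 (-0.08) were not called. In shoots at 7 h 1 of 7 was called, WRKY47, higher by 0.59 (adjusted p = 0.0342), where 13.7% of all probe sets were called.

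In roots limma called 0 of 7 WRKY genes in submerged against dark tissue at either time, where 8.69% of all probe sets were called at 7 h and 3.22% at 24 h, and 1 of 7 had an unadjusted p under 0.05 at each. In dark against light tissue, 4 of 7 were called higher in roots at 24 h, 3 of 7 in roots at 7 h, 3 of 7 in shoots at 7 h and 2 of 7 in shoots at 24 h, and 0 lower, shares that can be read against the 46.9% to 52.8% of all probe sets called either way. WRKY20 rose by 0.83 in dark roots at 7 h (adjusted p = 0.00016) and WRKY47 by 0.73 in dark shoots at 7 h (adjusted p = 0.00201). WRKY42 rose by 0.40 in dark shoots at 24 h (adjusted p = 0.00643). Of 11 listed C2H2 zinc finger genes of the kind of ZAT10, 8 were matched by name in RefSeq, and of these 8 ZAT10 had a 1-gene probe set. Genes not matched by name were not used, among them ZAT5 and ZAT18, which each had a 1-gene probe set.

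Other listed genes of the same signalling could be read in small numbers. PUB22 and PUB23, ubiquitin ligases that dampen immune signalling, were the 2 measured of 26 rapid stress genes. Both were called higher in submerged than in dark shoots at 24 h, PUB22 by 2.13 (adjusted p = 4.43e-06) and PUB23 by 1.199 (adjusted p = 0.0236). At 7 h PUB22 was higher by 1.97 (adjusted p = 8.71e-06). Neither PUB22 nor PUB23 was called under water in roots, where 8.69% of all probe sets were called at 7 h and 3.22% at 24 h. In submerged roots at 7 h PUB22 was 0.52 higher, with an unadjusted p under 0.05 (adjusted p = 0.188). SAG101, which acts in immune signalling with EDS1, was 0.63 higher in submerged than in dark shoots at 24 h (adjusted p = 0.018) and 0.58 higher in submerged roots at 7 h than in their dark counterparts (adjusted p = 0.038). PDF1.2, a defensin gene and the other measured of 26 immune output genes, was not called in either. In dark against light tissue SAG101 was called higher in both tissues at both times, as WRKY22 was. It rose by 1.197 in shoots at 7 h (adjusted p = 7.21e-06) and 1.168 at 24 h. In roots it rose by 0.69 at 7 h and 1.695 at 24 h. PDF1.2 was not called there. BIK1, a receptor-associated kinase of flagellin signalling, and EFR, a receptor for a bacterial elongation factor, were the 2 measured of 21 immune signalling genes. Neither was called under water, in comparisons where 3.22% to 13.7% of all probe sets were called. At 24 h BIK1 had an unadjusted p under 0.05 in roots (0.42 higher, adjusted p = 0.244) and in shoots (0.37 higher, adjusted p = 0.204). EFR read low, with means of 3.87 in submerged and 3.99 in dark shoots at 24 h. BIK1 rose in darkness by 1.57 in shoots at 24 h (adjusted p = 2.67e-07) and 0.87 in roots at 24 h (adjusted p = 0.000305).

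SWEET15, a sugar transporter gene of senescing leaves and the sole measured of 25 senescence genes, was called lower in dark shoots, where WRKY22 was higher. In dark roots SWEET15 was not called at either time. It averaged 5.04 ± 0.01 in dark shoots at 7 h and 8.15 ± 0.25 in light shoots (SD, n = 2 each), a change of -3.12 (adjusted p = 2.32e-12). In submerged against dark shoots it was 0.52 higher at 7 h (adjusted p = 0.0149) and was not called at 24 h (0.00). Of 23 oxidative stress genes, GSTU25, a glutathione transferase, and GR1, a glutathione reductase, were measured. Under water limma called 0 of these 2 in either tissue at either time, nor did either have an unadjusted p under 0.05. In these comparisons 3.22% to 13.7% of all probe sets were called. GSTU25 read low in shoots, with means of 3.53 in submerged and 3.77 in dark shoots at 24 h. In dark roots at 7 h GSTU25 fell by 3.80 and GR1 by 1.41. None of the 21 listed jasmonate genes had a probe set named for 1 gene here, so none could be looked up.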

How the data were processed

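The values were log2 expression values per probe set and array that the authors deposited in 1 table, made with RMA in the affy package per the submitters' processing notes, versions not given in the sources used here. RMA corrects background, normalizes arrays to each other and summarises probes. Array medians lay between 6.134 and 6.405, and nothing further was done to the values. Of 22810 probe sets, 64 controls were left out. Names came from a probe table of 14016 probe sets, of which 13513 named 1 gene and 503 several, and from the TAIR10.1 RefSeq gene table.

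limma (3.58.1, R 4.3.3; lmFit, eBayes) was fitted to the means of 10 groups, with 27 comparisons, 10 residual and 7.04 prior degrees of freedom. Two-sided p-values were adjusted for each comparison over its probe sets (Benjamini-Hochberg), with calls under 0.05. The procedure was tested on simulated data. The 4 genes and all gene lists were chosen with earlier results of these data known. A list gene is represented by its brightest 1-gene probe set. Genes whose name found no match in RefSeq were not used, even where they had such a probe set (ZAT5 and ZAT18). A gene with no such probe set counts as not measured. That is a limit of the names, since 22746 probe sets were tested and 13513 of them named 1 gene. Named were the 4 genes, the 5 probe sets of most similar pattern for each, up to 2 called genes with the largest changes per list and comparison, and all measured partners and targets. The other listed genes given with values, and the light shoot values of PUB23, were chosen after their values were seen. Promoter and protein sequences were not analysed here, so the planned motif searches were not run. Alternatives are given at the end. Figures were drawn with matplotlib (3.10.9).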

Additional observations from a re-analysis of the deposited data

Results flagged for a closer look

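These 4 differences between tissues are listed because the test of the difference itself passed the threshold, each given as root minus shoot on the log2 scale. The darkness change of WRKY22 differed by -3.176 at 7 h and by -2.607 at 24 h. The darkness change of WRKY53 differed by 1.647 at 24 h, and the submerged minus dark change of WRKY6 by -1.049 at 24 h. The last of these was lost in 12 of 20 fits without 1 array.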

How the results depend on the processing

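Values are adjusted p of the limma fits. Depth does not apply to arrays, and with 2 arrays per group their number limits the precision. All 4 genes read above 4.7 on every array, but some group means lay below the lowest array median of 6.134. Among these were ZAT10 (5.28) and WRKY53 (5.09) in dark shoots at 24 h, and WRKY22 (5.56) and WRKY6 (5.87) in light shoots. Fold changes against those groups rest on low readings. In 1-gene probe sets only, ZAT10 missed the threshold in dark against light roots at 7 h (0.051) and in submerged against dark shoots at 7 h (0.052). Quantile normalization again gave 0.069 in that shoot comparison, only shoot arrays 0.11, and a variance trend with robust estimation 0.16. For ZAT10 in dark against light roots at 7 h, median centring gave 0.056 and the variance trend 0.14; in roots at 24 h only root arrays gave 0.00088. Only root arrays also gave 0.049 for WRKY53 in dark against light roots at 7 h. WRKY6 in submerged against dark shoots at 7 h passed with the variance trend (0.048), the replicate block (0.032) and without the light arrays (0.028). In the 8 submergence and darkness comparisons a 2-fold minimum ended 4 calls by size alone (and 9 in the others): WRKY22 in dark against light roots at 7 h (0.0079) and 24 h (8.9e-06), WRKY6 in dark against light shoots at 7 h (0.0026) and WRKY22 in submerged against dark shoots at 24 h (0.029). Leaving out each array in turn, with the lone remaining array assumed to vary like the other groups, gave these ranges. Dark against light roots at 7 h ran from 0.0013 to 0.16 for WRKY22, 0.016 to 0.72 for WRKY53 and 0.00018 to 0.27 for ZAT10, and at 24 h from 0.00043 to 0.34 for ZAT10. Dark against light shoots at 7 h ran from 0.0048 to 0.75 for WRKY53, 0.00019 to 0.08 for WRKY6 and 5.6e-05 to 0.8 for ZAT10, which reversed without light shoot replicate 1 (0.013). At 24 h they ran from 0.011 to 0.82 for WRKY53, 0.0077 to 0.86 for WRKY6 and 1e-06 to 0.58 for ZAT10. Submerged against dark shoots ran from 0.027 to 0.37 for WRKY6 and 0.00011 to 0.3 for ZAT10 at 7 h, and from 0.015 to 0.17 for WRKY22 and 0.00041 to 0.053 for WRKY6 at 24 h. The root minus shoot darkness difference of ZAT10 at 24 h ran from 0.0068 to 0.98 and reversed without light shoot replicate 1 (0.009). Across the 8 submergence and darkness comparisons, 732 to 12016 probe sets were called, against 213 to 6361 with a 2-fold minimum and 359 to 6620 with 1-gene probe sets only. Without 1 array, submerged against dark roots had as few as 693 calls against 1976 at 7 h (submerged replicate 2) and 275 against 732 at 24 h (submerged replicate 2), and shoots 1903 against 3105 at 7 h (submerged replicate 2) and 1618 against 2712 at 24 h (dark replicate 2). Of 45 pairs of groups, 5 correlated above 0.1 in their deviations (-0.139 to 0.16). Roots and shoots of the same condition ran from -0.139 in light to 0.141 when submerged at 7 h. With 2 arrays per group, this cannot settle whether the replicate numbers pair the samples. The replicate block changed 1 of the submergence or darkness calls of the 4 genes, that of WRKY6 above. The motif searches were not run.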
